A study of Mus musculus with 36 samples.

Results

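The collagen genes other than collagen VI were followed in 2 mouse breast cancer cell lines, AT-3 and E0771. They were taken by symbol, as every gene named Col, a number, a and a number, and the 6 collagen VI genes were left out. This gave 38 genes of the 32285 mouse gene IDs in the count table, 11 fibrillar, 9 network-forming and 18 of other classes. The other classes were 9 fibril-associated collagens (FACIT), 4 transmembrane collagens, 2 multiplexins and 3 remaining genes, Col7a1, Col26a1 and Col28a1. AT-3 comes from a mammary tumour of a mouse in which the MMTV promoter drives the polyoma middle T oncogene, and E0771 from a mouse mammary adenocarcinoma. Cells were plated for 24 h and then kept for 24 h in DMSO (the vehicle), in a channel opener at 10 µM, in KCl at 40 mM, or in KCl plus an opener. The openers were NS11021, which acts on the BK potassium channel, and BMS204352, which acts on BK and on KCNQ channels. There were 12 groups of 3 libraries. There was no osmotic or chloride control, so potassium, chloride and osmolarity cannot be told apart. Each line is a single cell line, and the labels do not say whether the libraries of a group came from separate cultures, so p-values measure only the spread between these libraries.

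Collagens are triple helices of alpha chains, each chain from its own gene. Fibrillar collagens (types I, II, III, V, XI, XXIV and XXVII) form or seed the fibrils that give tissue its tensile strength. Network collagens form sheets: type IV makes basement membranes, and types VIII and X make lattices. FACITs sit on fibril surfaces, transmembrane collagens span the cell membrane, multiplexins such as type XVIII lie in basement membranes, and type VII anchors epithelium to the stroma. In breast tumours the fibrillar collagens are made largely by stromal fibroblasts, while tumour cells make part of the basement membrane.

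Depth per library ran from 38.5 to 52.6 M counts for AT-3, and for E0771 from 31.2 to 47.9 M. Values are given as CPM, counts per M of a library's total, or, where genes are compared with each other, as RPKM, which also divides by gene length. Both lines are labelled breast cancer cells. AT-3 held the epithelial genes Krt14 (1450 CPM), Cdh1 (450), Krt5 (153) and Epcam (122). In E0771 these were at 0.105, 1.41, 0 and 0.0746 CPM, whereas Krt8 was at 202 CPM, against 0.349 in AT-3. Of the 5 fibroblast markers tested, Pdgfra (12.3 CPM in AT-3 and 109 in E0771), Pdgfrb (34.2 and 64.6) and Gsn (51.3 and 929) were higher in E0771, and Pdpn (0.496 and 0.0192) was lower. The fibroblast genes Thy1 and Lum were at 0 in the DMSO libraries of both lines, and so was the leukocyte gene Ptprc. In these bulk libraries, fewer cells of a kind and less RNA per cell cannot be told apart. The replicate 3 libraries of BMS204352 stood apart from their group in both lines, as did that of KCl+BMS204352 in AT-3. Along the main axis of variation in AT-3, BMS204352 replicates 1 to 3 scored 17.2, 22.1 and 65.9, and those of KCl+BMS204352 scored -3.16, 1.3 and 30.1. Results of the collagen members with BMS204352 are therefore also given without 4 libraries, the replicate 3 libraries of BMS204352 and KCl+BMS204352 in both lines. Markers and other genes are given with all libraries only.

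The lines used different collagens without treatment. AT-3 was dominated by the fibrillar gene Col11a1, and E0771 by the basement membrane genes Col4a1 and Col4a2 together with the fibrillar gene Col5a1. Of 33 members with enough counts to test, 11 were higher and 19 lower in E0771, 90.9% of the members against a percent called of 74.5 over all genes (34.1 higher and 40.4 lower). The median log2 difference of E0771 against AT-3 was -2.17 over the members and -0.09 over all genes. A member could enter this test through the line where it was high. Tested by themselves, AT-3 kept 30 members and E0771 22. Col4a5, Col4a6, Col11a1 and Col25a1 were among those kept in AT-3 only. The split and the median of the members therefore depend in part on the filter. Col11a1 (gene ENSMUSG00000027966, GRCm38 chr3:114030540-114220718) is a chain of type XI collagen, which seeds cartilage fibrils. In AT-3 DMSO libraries it stood at 1330, 1400 and 1550 CPM, which was 50.3% of all collagen counts. E0771 DMSO libraries had 0 counts of it, so Col11a1 was at least 55000-fold higher in AT-3, taking 3 counts over the 3 libraries as the floor. All 18 E0771 libraries together held 8 counts of Col11a1, all of them in 1 library.

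By RPKM, AT-3 DMSO libraries held Col11a1 at 111 ± 10.3 (SD, n = 3), followed by the FACIT Col12a1 at 28.5 ± 7.45. Next came Col18a1 (24.9 ± 1.72), the precursor of the angiogenesis inhibitor endostatin, and Col4a5 (24.2 ± 0.673), a basement membrane chain. With these lengths, the union of a gene's exons, the 3 genes did not differ from each other beyond their spread. With the longest transcript as the length they were further apart, at 37.7, 31.2 and 24.9 RPKM. Col16a1, a FACIT, stood at 16.1 ± 0.459 and Col4a1 at 12.1 ± 1.31. The cartilage collagens Col2a1 (9.26 ± 0.241) and Col9a3 (7.31 ± 1.49) and the hemidesmosome collagen Col17a1 (9.79 ± 0.251) came in the same range as Col4a2 (8.54 ± 1.06). By the longest transcript Col2a1 was higher, at 16.8 RPKM against 8.77 for Col4a2. Of 6 cartilage and bone markers tested, Sox9 (523 CPM in AT-3 and 108 in E0771) and Acan (27.8 and 0.0664) were lower in E0771, and Matn3 (0.0598 and 2.22), Runx2 (27.4 and 40.9) and Sp7 (0 and 0.304) were higher.

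In E0771 DMSO libraries the order by RPKM was Col4a1 (196 ± 7.28), Col5a1 (137 ± 6.81) and Col4a2 (98.1 ± 5.14), each clear of the next by more than its SD. Col4a1 alone was 34.3% of collagen counts. Behind them stood Col16a1 (39.1 ± 0.747), Col18a1 (32.9 ± 1) and Col5a3 (30.3 ± 1.05), then Col7a1 (13.3 ± 0.453) and Col1a1 (10.9 ± 1.09). Col3a1, the partner of type I in soft tissue, was at 5.98 ± 0.762. The remaining members were at 1.14 RPKM or less.

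**Figure D1:**
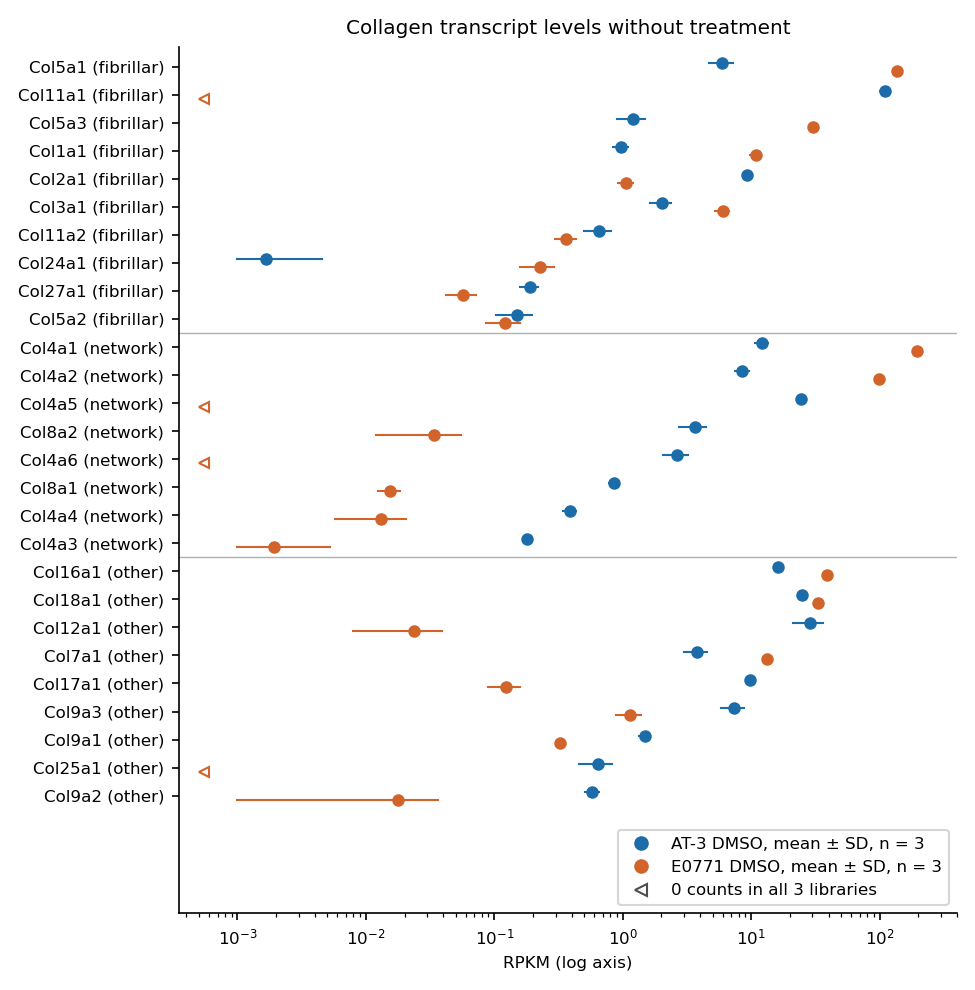
RPKM on a log axis of the members with a mean of at least 1 CPM in the DMSO libraries of either line, by class. Points are means and whiskers SDs of 3 DMSO libraries, those that would reach 0 are cut short at the left, and open triangles mark 0 counts in all 3 libraries. Col11a1 at 111 leads AT-3, Col4a1 at 196 and Col5a1 at 137 lead E0771, and Col4a5, Col4a6 and Col25a1 had 0 counts in the E0771 DMSO libraries.

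Among fibrillar members, Col5a1 (chr2:27886425-28039514) regulates fibril diameter as a chain of type V. It stood at 51.9, 61.2 and 39 CPM in AT-3 and 1160, 1130 and 1230 in E0771, a log2 difference of 4.54 ± 0.16 (SE, adjusted p = 1.27e-19). Col5a3, another type V chain, was 25.3-fold higher in E0771. Col1a1 (chr11:94936224-94953042), the main chain of type I collagen, was at 6.36, 7.39 and 5.52 CPM in AT-3 and 74.4, 64.6 and 77.8 in E0771, 11.3-fold higher. Its partner chain Col1a2 was nearly silent in both lines, with 2 to 26 counts per library in AT-3 and 0 to 12 in E0771. Per length, Col1a1 was 38.8 ± 6.16 times Col1a2 in AT-3 DMSO libraries. With the longest transcript of each gene as the length, in place of the union of its exons, it was 18.5 times. Col5a2, the partner of Col5a1 in the common type V trimer, was likewise low, at 0.15 ± 0.0463 RPKM in AT-3 and 0.122 ± 0.0366 in E0771. Neither Col1a2 nor Col5a2 passed the test between the lines. Col3a1 was 2.97-fold higher in E0771, and Col2a1 was lower there, with a log2 difference of -3.13 ± 0.17. Col24a1, a fibrillar chain of developing bone and cornea, held 201 counts in the E0771 DMSO libraries and 2 in those of AT-3.

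Network members split by chromosomal pair. Type IV chains are encoded in head-to-head pairs, and in GENCODE vM21 Col4a1 and Col4a2 overlap by 22 bases at their starts on chromosome 8, Col4a3 and Col4a4 lie 71 bases apart on chromosome 1, and Col4a5 and Col4a6 lie 1308 bases apart on chromosome X. The first pair was higher in E0771, by 4.02 ± 0.13 (Col4a1) and 3.52 ± 0.12 (Col4a2) on the log2 scale. The other pairs were higher in AT-3. Col4a5 was at 160, 165 and 166 CPM and Col4a6 at 18.9, 26.6 and 17.7 CPM in AT-3, and all 18 E0771 libraries had 0 counts of both. Against the floor, Col4a5 was at least 6290-fold and Col4a6 at least 801-fold higher in AT-3. Col4a4 stood at 3.86, 3.92 and 4.64 CPM in AT-3, and the 3 E0771 libraries held 16 counts in all. Col8a2, a lattice collagen of vessel and cornea, was at 15.5, 13.1 and 20.3 CPM in AT-3, against 18 counts in all in E0771. Per length, Col4a1 was 1.42 ± 0.078 times Col4a2 in AT-3 and 2 ± 0.0299 times in E0771, so the ratio was above 1 in both lines and higher in E0771.

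Of the other classes, Col16a1 (chr4:130047840-130099283) was at 112, 112 and 104 CPM in AT-3 and 260, 268 and 268 in E0771, 2.43-fold higher. Col7a1 was 3.53-fold and Col18a1 1.32-fold higher in E0771. Col12a1, a FACIT of tendon and tumour stroma, was at 313, 537 and 461 CPM in AT-3 and between 0.203 and 0.634 in E0771. Col17a1 was at 57.9 to 61.3 CPM in AT-3 and 0.519 to 0.927 in E0771. Col25a1, a transmembrane collagen, was at least 316-fold higher in AT-3, with 0 counts in the E0771 DMSO libraries. The cartilage FACITs Col9a1 and Col9a2 were at 6.88 to 8.42 and 1.56 to 2.03 CPM in AT-3, and at 1.61 to 1.73 and at most 0.115 CPM in E0771. Col20a1 was at 0.73 to 1.13 CPM in AT-3 and at most 0.173 in E0771. The network genes Col4a3 (1.75 to 1.85 CPM), Col8a1 (6.16 to 7.35) and Col10a1 (0.266 to 0.377) were all lower in E0771, with 2, 14 and 2 counts over its 3 DMSO libraries. The fibrillar genes Col11a2 (-0.85 ± 0.23) and Col27a1 (-1.70 ± 0.37) were lower in E0771 as well. The call for the transmembrane Col13a1, higher in E0771, rested on 0, 2 and 6 counts against 0 in each AT-3 library, which overlap, and was lost without any of the AT-3 DMSO libraries or E0771 DMSO replicate 3 (adjusted p of up to 0.172). That for Col23a1, lower in E0771, rested on 20, 16 and 14 counts in AT-3 against 2, 0 and 6, and was lost without replicate 1 or 2 of either DMSO group (adjusted p of up to 0.141). Col13a1, Col14a1, Col15a1, Col19a1, Col22a1, Col26a1 and Col28a1 never reached 19 counts in any of the 36 libraries.

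The starts of 4 genes are shown because 3 of them were read in AT-3 and almost or wholly silent in E0771, and Col18a1 passed the test in more comparisons than it missed in E0771. The sequences are RefSeq promoter windows of GRCm38.p6, limited to bases before the first exon in the annotation, 5′ to 3′ on the gene's strand. Capitals mark CCAAT, the box bound by NF-Y, and GGGCGG, the GC box bound by Sp1, on either strand. Col4a5 is chrX:141475169-141475384 (plus strand), Col4a6 chrX:141474077-141474326 (minus), Col11a1 chr3:114030290-114030539 (plus) and Col18a1 chr10:77166549-77166780 (minus).
Col4a5: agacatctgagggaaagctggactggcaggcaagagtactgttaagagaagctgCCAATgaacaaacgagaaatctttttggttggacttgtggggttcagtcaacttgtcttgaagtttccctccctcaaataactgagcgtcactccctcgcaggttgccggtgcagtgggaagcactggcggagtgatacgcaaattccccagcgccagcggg
Col4a6: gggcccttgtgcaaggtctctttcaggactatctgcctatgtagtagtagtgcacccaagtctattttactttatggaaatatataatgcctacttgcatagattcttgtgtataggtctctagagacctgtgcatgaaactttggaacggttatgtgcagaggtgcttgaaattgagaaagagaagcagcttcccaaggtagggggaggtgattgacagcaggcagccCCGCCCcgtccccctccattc
Col11a1: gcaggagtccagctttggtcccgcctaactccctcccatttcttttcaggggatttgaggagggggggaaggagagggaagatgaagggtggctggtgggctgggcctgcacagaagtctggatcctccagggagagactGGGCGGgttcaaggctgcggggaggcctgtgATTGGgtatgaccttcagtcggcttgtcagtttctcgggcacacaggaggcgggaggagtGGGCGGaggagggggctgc
Col18a1: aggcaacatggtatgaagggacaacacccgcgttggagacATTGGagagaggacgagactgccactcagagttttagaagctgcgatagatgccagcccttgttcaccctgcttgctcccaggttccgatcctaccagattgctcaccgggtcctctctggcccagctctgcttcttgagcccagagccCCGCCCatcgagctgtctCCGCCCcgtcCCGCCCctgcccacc
Windows of 300 bases, from 250 before to 50 after the start, were held for 29 of the 38 members, 31 windows in all and the Col4a1 and Col4a2 windows overlap in part. GGGCGG, searched on both strands, was in 58.1% of member windows and 35.7% of all 32851 windows. CCAAT was in 38.7% and 37.4%, and TATAAA in 16.1% and 13.6%. The CArG box of SRF, the factor in the study's title, was in 0 member windows and in 1.63% of all windows. A match is a description of letters, and no match says only that they are not in this window. Member windows had a median GC content of 60% against 52.7% over all windows.

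With KCl in AT-3, 4 members rose and 1 fell of 30 tested, 16.7% against a percent called of 4.83 over all genes (3.08 higher and 1.75 lower). The class that moved most often was the network class, with Col4a4, Col4a5 and Col8a2 higher, 3 of 9 tested. The median log2 change was 0.12 over the members, 0.35 over the network class and 0 over all genes. Col16a1 had the smallest adjusted p. It went from 112, 112 and 104 CPM with DMSO to 59.8, 57.7 and 58.4 with KCl, and stayed at 58.6 to 70.4 CPM with KCl and either compound. All 9 libraries with KCl lay below all 9 without it. The log2 change with KCl was -0.89 ± 0.06 (adjusted p = 6.68e-09). Col4a5 went from 160, 165 and 166 CPM to 204, 222 and 208, a rise of 0.37 ± 0.05 (adjusted p = 0.000282). Its pair partner Col4a6 gave 21.1, 22.5 and 16.4 CPM with KCl and a log2 change of -0.07 ± 0.20, within the spread of its DMSO libraries.

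Col4a4 went from 3.86, 3.92 and 4.64 CPM to 7.23, 7.41 and 7.66 in AT-3 (0.85 ± 0.19, adjusted p = 0.0101, and 0.0555 without DMSO replicate 1). Its partner Col4a3 moved by 0.69 ± 0.22 with an adjusted p of 0.0832. Col8a2 went from 15.5, 13.1 and 20.3 CPM to 25.5, 24 and 38 (0.84 ± 0.21, adjusted p = 0.029). The fibrillar chain Col11a2 went from 4.76, 5.59 and 3.33 to 7.37, 9.45 and 6.35 CPM (0.77 ± 0.20, adjusted p = 0.029). The groups did not overlap for any of the 5. They did not overlap either for Col4a3, Col5a3, Col8a1, Col9a1, Col9a2 and Col17a1, which were not called. The share of all genes without overlap was not counted, so no weight is put on this. The calls for Col8a2 and Col11a2 depended on single libraries, and that for Col8a2 also on the settings. For Col8a2 the adjusted p reached 0.124 over the alternatives and the call was lost in 6 of 14. These were without DMSO replicate 1, DMSO replicate 2 or KCl replicate 3, with no filter, with only the libraries compared, and without the 4 libraries (adjusted p = 0.0506). For Col11a2 the adjusted p reached 0.161 and the call was lost without DMSO replicate 1, DMSO replicate 3, KCl replicate 1 or KCl replicate 2. Without DMSO replicate 1 there were 2 calls in place of 5, and DESeq2 made 8, with Col4a3, Col5a3 and Col17a1 added. The most abundant gene, Col11a1, was at 1350, 1470 and 1460 CPM with KCl, a log2 change of 0.01 ± 0.09. Col1a1 (0.03 ± 0.18), Col4a1 (0.23 ± 0.16) and Col4a2 (0.12 ± 0.14) did not pass the test. Neither did Col5a3, whose libraries went from 8.39, 10.3 and 6.05 to 5.1, 5.1 and 3.07 CPM (-0.89 ± 0.30, adjusted p = 0.115).

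**Figure D2:**
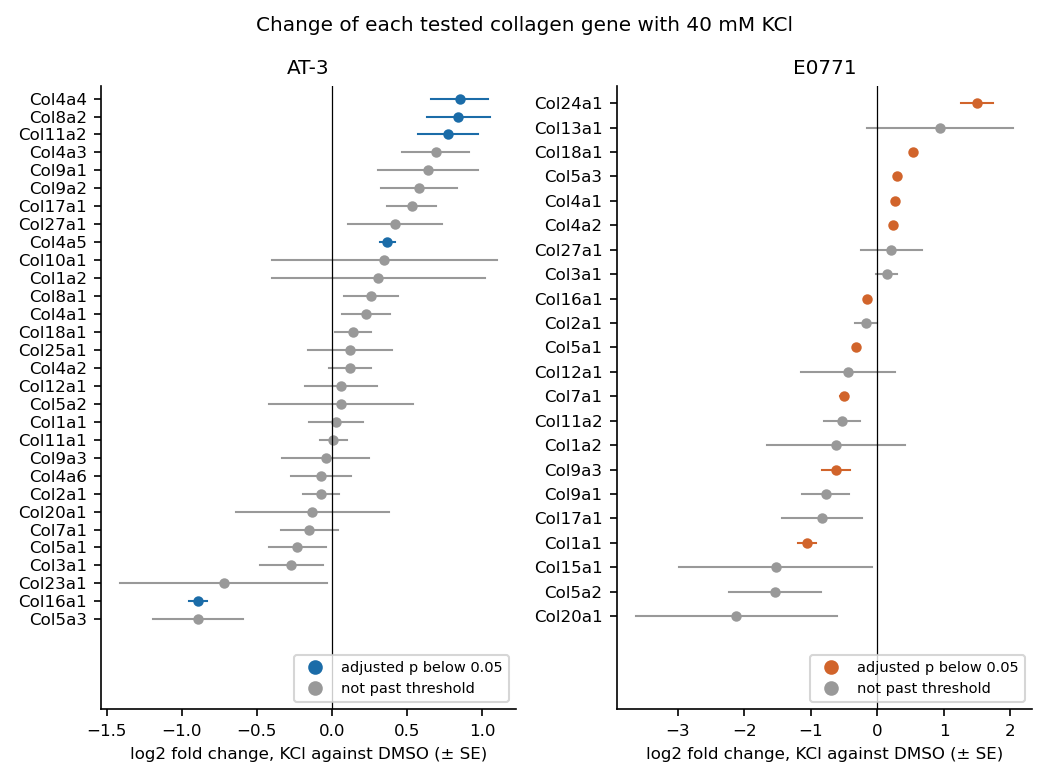
Log2 fold change with 40 mM KCl against DMSO for each tested member, AT-3 on the left and E0771 on the right, with SEs from the fit to the 18 libraries of each line. Coloured points passed at an adjusted p below 0.05; in AT-3 Col16a1 stands at -0.89 and Col4a5 at 0.37, and in E0771 Col24a1 stands at 1.49 and Col1a1 at -1.06.

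With KCl in E0771, 5 members rose and 5 fell of 22 tested, 45.5% against a percent called of 36.4 over all genes (17.8 higher and 18.6 lower), so the share was near the background. The basement membrane genes Col4a1, Col4a2 and Col18a1 rose, and the fibrillar genes were divided, with Col5a3 and Col24a1 higher and Col1a1 and Col5a1 lower. Col4a1 went from 1440, 1450 and 1530 to 1720, 1750 and 1770 CPM, a rise of 0.26 ± 0.04 (adjusted p = 1.27e-06). Col4a2 went from 635, 636 and 690 to 743, 791 and 743 CPM (0.23 ± 0.04, adjusted p = 5.66e-05). Per length their ratio was 2 ± 0.0299 with DMSO and 2.05 ± 0.0752 with KCl. Col18a1 went from 225, 234 and 238 to 328, 346 and 330 CPM (0.54 ± 0.04, adjusted p = 1.17e-11). None of these groups overlapped.

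Of the members called, Col1a1 fell furthest in E0771, from 74.4, 64.6 and 77.8 to 34.2, 30.8 and 38.4 CPM (-1.06 ± 0.13, adjusted p = 5.94e-06), with all 9 KCl libraries below all 9 others. Col3a1, which often shares fibrils with type I collagen, gave 58.4, 62.6 and 72.8 CPM with KCl against 55.4, 54.3 and 67.4 (0.14 ± 0.16). The type V chains went apart: Col5a1 fell from 1160, 1130 and 1230 to 923, 937 and 936 CPM (-0.32 ± 0.04, adjusted p = 1.78e-07). Col5a3 rose from 201, 207 and 214 to 262, 253 and 244 CPM (0.30 ± 0.05, adjusted p = 2.73e-05). Per length, Col5a1 was 4.54 ± 0.148 times Col5a3 with DMSO and 2.96 ± 0.13 times with KCl. In AT-3 the same ratio was 4.96 ± 0.206 with DMSO and 7.98 ± 1.18 with KCl. Col24a1 rose from 2.29, 1.55 and 1.33 to 5.61, 5.03 and 3.92 CPM (1.49 ± 0.24, adjusted p = 8.28e-06).

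Of the other classes in E0771, Col7a1 fell from 135, 136 and 142 to 101, 95.8 and 93.1 CPM (-0.50 ± 0.06, adjusted p = 5.65e-08). Col9a3 fell from 5.36, 4.43 and 3.43 to 2.09, 3.02 and 3.37 CPM (-0.63 ± 0.21, adjusted p = 0.0166), a call lost without DMSO replicate 1 or KCl replicate 1, where the adjusted p reached 0.133. Col16a1 went from 260, 268 and 268 to 234, 238 and 239 CPM, a fall of 0.15 ± 0.06 on the log2 scale (adjusted p = 0.0466). That call was lost in 9 of 14 alternatives, each of the 6 left-out libraries included, with adjusted p-values up to 0.128. Col5a2 gave 0.159, 0.479 and 0.566 CPM against 1.51, 0.814 and 1.21, groups that did not overlap, and a log2 change of -1.54 ± 0.69 (adjusted p = 0.0809). It was called in 4 of the alternatives run, those with no filter, halved counts, only the libraries compared or without the 4 libraries. The summed level of 8 fibroblast markers lay between 1050 and 1150 CPM with DMSO and between 1810 and 1870 with KCl, and its most abundant gene Gsn rose by 0.82 ± 0.05, while Thy1, Dcn and Lum were at 0 in both groups. The sum of 10 epithelial markers lay between 202 and 207 CPM with DMSO and between 157 and 166 with KCl. Cartilage and bone markers summed to 145 to 157 CPM with DMSO and 110 to 115 with KCl, where Sox9 fell by 0.72 ± 0.05. Leukocyte markers summed to 10.3 to 11 and 4.64 to 6.24 CPM, with Lyz2 (-1.3 ± 0.2) and Cd68 (-0.66 ± 0.14) called lower. Cd3e, Itgam and Adgre1 were at 0 in both groups. Endothelial markers summed to 1.5 to 1.9 and 3.54 to 6.76 CPM, with Pecam1 (2.19 ± 0.36) and Vwf (1.08 ± 0.28) called higher and Emcn at 0 in both. The part of these in the collagen changes was not tested.

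**Figure D3:**
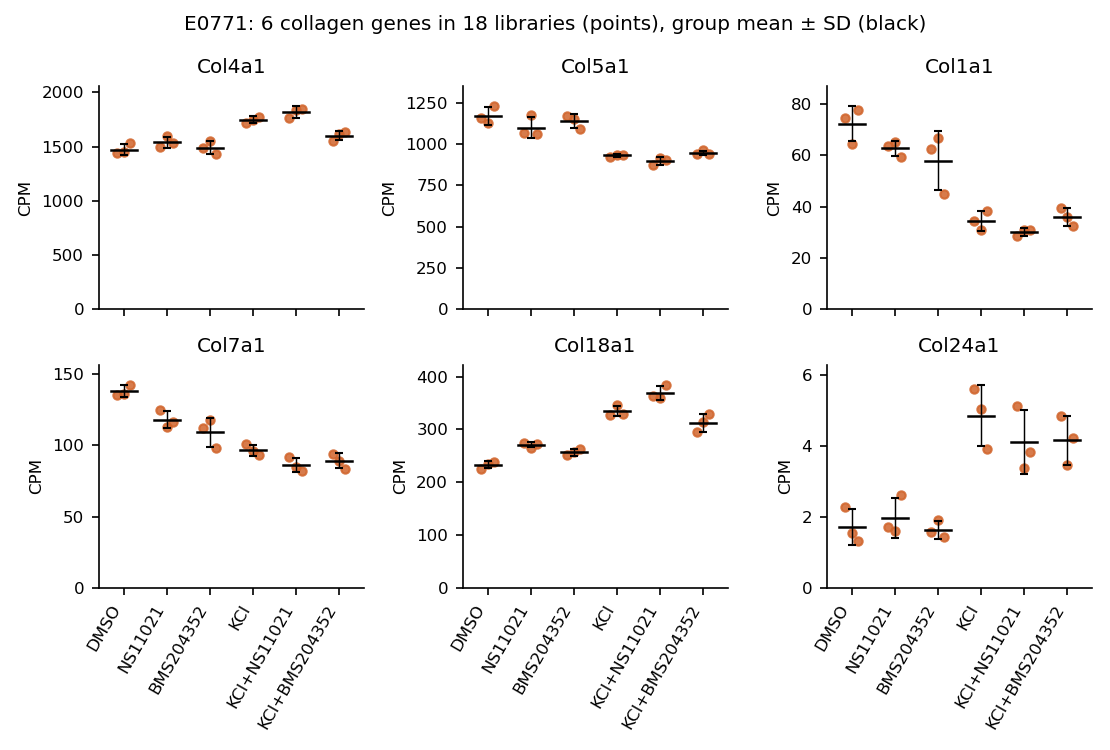
CPM of 6 members in each of the 18 E0771 libraries, with group means and SDs in black and every axis starting at 0. The 9 libraries with KCl lie above the other 9 for Col18a1 and Col24a1 and below them for Col1a1 and Col5a1, with Col1a1 at 34.4 on average with KCl and 72.3 with DMSO.

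The difference between the lines in the KCl effect passed for 4 of 33 members, 12.1% against a percent called of 9.14 (4.12 higher and 5.02 lower). DESeq2 called 9, and 8 were called without the 4 libraries and 7 with only the libraries compared. Col16a1 fell further in AT-3, with a difference (E0771 minus AT-3) of 0.73 ± 0.08 on the log2 scale (adjusted p = 2.65e-07). Col1a1 differed by -1.09 ± 0.21 (adjusted p = 0.000994), having fallen in E0771 and given 0.03 ± 0.18 in AT-3. Col11a2 differed by -1.31 ± 0.33 (adjusted p = 0.0081), rising in AT-3 and giving -0.53 ± 0.27 in E0771. Col5a3 differed by 1.18 ± 0.30 (adjusted p = 0.0118, and up to 0.0538 without AT-3 DMSO replicate 2 or AT-3 KCl replicate 3). For Col4a1 the difference was 0.02 ± 0.17 and for Col4a2 0.10 ± 0.15, so a difference between the lines in these was not detectable.

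Other genes that make, bind and break down collagen were counted by lists. With KCl in AT-3, beside the 4.83 percent called over all genes (3.08 higher and 1.75 lower), 4 of 37 tested genes of collagen making and crosslinking rose and 1 fell. Of the breakdown list 1 rose and 1 fell of 10, of the TGF-beta list 2 rose of 15, and of the fibril partners 1 rose of 10. Pcolce2, an enhancer of procollagen processing, rose by 0.80 ± 0.10 (adjusted p = 3.85e-05), and Tll1, a procollagen proteinase, by 1.03 ± 0.25. The membrane protease gene Mmp15 fell by 0.70 ± 0.12, and Skil, an inhibitor of TGF-beta signalling, rose by 0.29 ± 0.07. Among the cartilage markers, Acan fell by 0.60 ± 0.16 (adjusted p = 0.0382). With KCl in E0771, beside the 36.4 percent called over all genes (17.8 higher and 18.6 lower), 14 of 32 genes of making and crosslinking rose and 4 fell. Of the receptors 4 rose and 0 fell of 5, of the breakdown list 1 rose of 6, of the fibril partners 2 rose of 5, and of the TGF-beta list 2 rose and 1 fell of 15. The receptor chain Itga10 rose by 1.76 ± 0.13, the protease inhibitor Timp2 by 0.43 ± 0.04 and the procollagen proteinase Bmp1 by 0.37 ± 0.04. The 4 genes of making and crosslinking that fell, named after their values were seen, were Pcolce2 (-0.50 ± 0.08), Colgalt1 (-0.21 ± 0.04), Crtap (-0.21 ± 0.05) and Pepd (-0.22 ± 0.06). Pcolce2 thus went opposite ways in the 2 lines, with a line difference of -1.31 ± 0.14 (adjusted p = 4.26e-08). The list medians in E0771 were 0.12 for making and crosslinking and 0.43 for receptors, beside -0.01 over all genes tested. Between the untreated lines, the collagen chaperone Serpinh1 was higher in E0771 by 3.06 ± 0.06, and the TGF-beta receptor Tgfbr2 was lower, with a difference of -3.83 ± 0.10.

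NS11021 alone changed few members. In AT-3 edgeR called 0 of 30, with 2 at an unadjusted p under 0.05 and 0 with DESeq2, beside a percent called of 0.0745 (0.0677 higher and 0.00677 lower). Col3a1 gave 23, 28.1 and 31.6 CPM against 19.7, 16.3 and 23.4 (0.49 ± 0.21, adjusted p = 0.604). In E0771, NS11021 raised 2 and lowered 1 of 22, 13.6% against a percent called of 26.3 (12.8 higher and 13.5 lower). Fitted to the libraries compared alone, 7 were called. Col18a1 rose from 225, 234 and 238 to 274, 265 and 273 CPM (0.22 ± 0.04, adjusted p = 0.000215). Col7a1 fell from 135, 136 and 142 to 125, 113 and 116 CPM (-0.22 ± 0.06, adjusted p = 0.00553). Col4a2 rose by 0.11 ± 0.04 (adjusted p = 0.0451), but its libraries overlapped those of DMSO, and the adjusted p reached 0.231 over the alternatives, with the call lost without DMSO replicate 1, DMSO replicate 2 or NS11021 replicate 2.

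BMS204352 alone changed more members in AT-3. It raised 2 and lowered 6 of 30, 26.7% against a percent called of 5.27 (3.28 higher and 2 lower), and without the 4 libraries 6 were called, 4 of these 8 and also Col2a1 and Col17a1. The comparison with DMSO uses the same control libraries as the KCl and NS11021 comparisons. Col18a1 (chr10:77052178-77166548) went from 175, 190 and 163 to 291, 284 and 413 CPM (0.92 ± 0.12, adjusted p = 0.00103), with replicate 3 the highest and no overlap. Its change without the 4 libraries was 0.71 (adjusted p = 1.66e-07). Col16a1 went from 112, 112 and 104 to 135, 133 and 133 CPM, a rise of 0.30 ± 0.06 (adjusted p = 0.00502), and 0.30 without the 4 libraries. This is the opposite direction to its fall with KCl in the same line.

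The 6 that fell with BMS204352 in AT-3 were 3 fibrillar and 3 network genes. Col11a1 went from 1330, 1400 and 1550 to 1210, 948 and 903 CPM (-0.47 ± 0.09, adjusted p = 0.00651), with replicate 1 nearest the DMSO libraries. Leaving out the 4 libraries gave -0.40 with an adjusted p of 0.0744, and the call was also lost without DMSO replicate 3 or BMS204352 replicate 3 alone, with an adjusted p of up to 0.179. Col3a1 went from 19.7, 16.3 and 23.4 to 11.8, 8.76 and 6.65 CPM (-1.12 ± 0.21, adjusted p = 0.00898). It gave -0.95 (adjusted p = 0.0421) without the 4 libraries, and the call was lost without DMSO replicate 3 or BMS204352 replicate 3 alone, with an adjusted p of up to 0.105. Col4a5 went from 160, 165 and 166 to 140, 132 and 125 CPM (-0.30 ± 0.05, adjusted p = 0.00412), and -0.27 (adjusted p = 0.00727) without the 4 libraries. Col4a4 went from 3.86, 3.92 and 4.64 to 2.52, 2.31 and 2.24 CPM (-0.80 ± 0.20, adjusted p = 0.0231). Col8a2 went from 15.5, 13.1 and 20.3 to 9.42, 8.58 and 8.02 CPM (-0.91 ± 0.21, adjusted p = 0.0261). Col5a2 went from 0.943, 1.64 and 1.75 to 0.651, 0.261 and 0.291 CPM (-1.83 ± 0.52, adjusted p = 0.0426). These last 3 calls were lost without the 4 libraries, with adjusted p-values of 0.0526, 0.174 and 0.106. They were also lost without DMSO replicate 1, DMSO replicate 3 or BMS204352 replicate 3, and those of Col8a2 and Col5a2 without BMS204352 replicate 2, and that of Col5a2 without DMSO replicate 2, with adjusted p-values up to 0.193. There were 5 calls in place of 8 without DMSO replicate 1, 3 without DMSO replicate 3 and 4 without BMS204352 replicate 3. Fitted to the DMSO and BMS204352 libraries alone, 0 of the 30 members were called.

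Markers moved in the same AT-3 comparison. Summed levels with DMSO and BMS204352 were 2150 to 2300 and 2520 to 2870 CPM for epithelium, 89.4 to 106 and 119 to 185 for fibroblasts, and 4.61 to 6.12 and 8.86 to 22.6 for leukocytes. They were 1.75 to 2.05 and 2.93 to 6.23 CPM for endothelium, and 550 to 630 and 545 to 578 for cartilage and bone. Called higher were Krt14 and Epcam of epithelium and Gsn of fibroblasts (1.01 ± 0.23). So were Cd68 of leukocytes (1.48 ± 0.37, adjusted p = 0.0359) and Pecam1 of endothelium (1.02 ± 0.26, adjusted p = 0.0273). The leukocyte genes Ptprc, Cd3e and Adgre1 and the endothelial gene Emcn were at 0 in both groups. The part of these markers in the collagen changes was not tested. Of the collagen lists, Ogn, a small proteoglycan of fibrils, fell by 1.65 ± 0.25 on the log2 scale, the TGF-beta receptor Tgfbr2 fell by 0.57 ± 0.10, and Colgalt2, which adds galactose to collagen, fell (adjusted p = 0.0104). The collagenase gene Mmp13 rose by 5.37 ± 1.1. Whether these changes of markers and listed genes hold without the 4 libraries, or with only the libraries compared, was not tested. Beside the 5.27 percent called over all genes, making and crosslinking had 2 higher and 2 lower of 37, fibril partners 0 higher and 2 lower of 10, and the TGF-beta list 1 higher and 1 lower of 15.

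**Figure D4:**
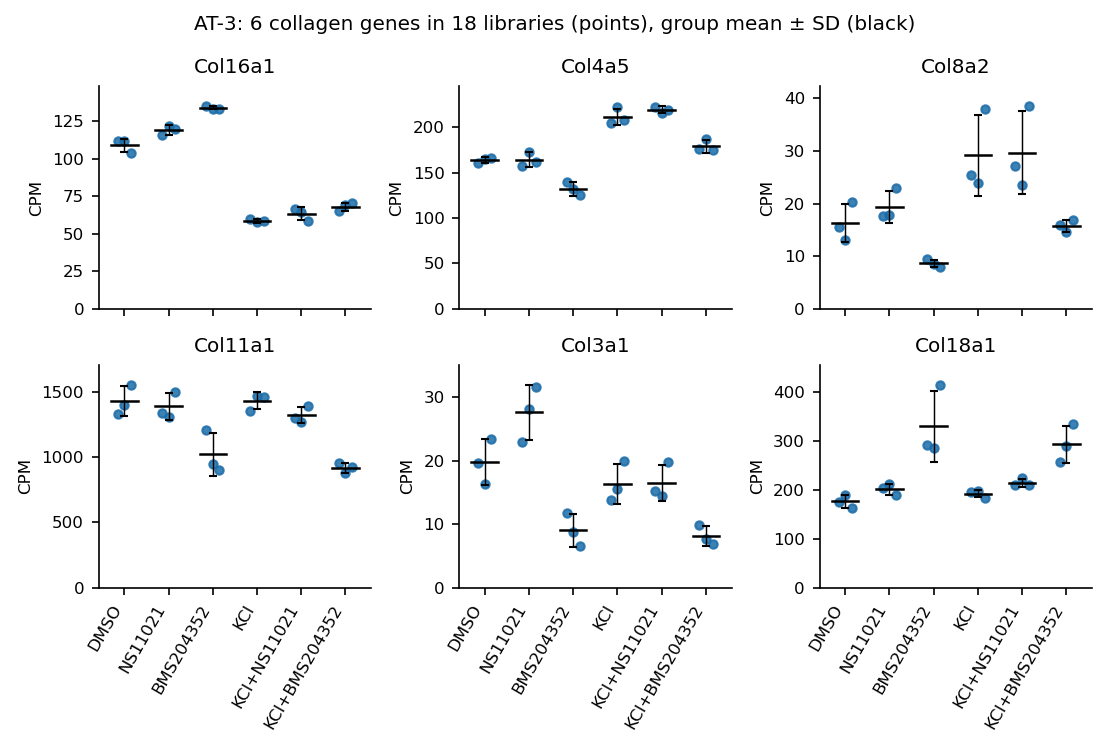
CPM of 6 members in each of the 18 AT-3 libraries, with group means and SDs in black and every axis starting at 0. Col16a1 averaged 109 with DMSO, 134 with BMS204352 and 58.6 with KCl, and Col11a1 averaged 1430 with DMSO, 1020 with BMS204352 and 918 with KCl+BMS204352.

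In E0771, BMS204352 raised 1 and lowered 3 of 22, 18.2% against a percent called of 22.7 (11.3 higher and 11.3 lower), near the background. Col7a1 went from 135, 136 and 142 to 112, 118 and 97.8 CPM (-0.33 ± 0.06, adjusted p = 0.000168), and -0.25 (adjusted p = 0.000405) without the 4 libraries. Col18a1 rose from 225, 234 and 238 to 251, 258 and 263 CPM (0.15 ± 0.04, adjusted p = 0.00804, and 0.055 without DMSO replicate 1), and by 0.13 without the 4 libraries. Col9a3 went to 2.4, 2.99 and 3.36 CPM (-0.59 ± 0.21, adjusted p = 0.0378), and -0.71 (adjusted p = 0.0279) without the 4 libraries. Without DMSO replicate 1 or 2, or BMS204352 replicate 1 or 2, that call was lost, with an adjusted p of up to 0.228. Col3a1 went from 55.4, 54.3 and 67.4 to 42.3, 53.2 and 31.2 CPM (-0.48 ± 0.16, adjusted p = 0.0497), lowest in replicate 3. The change was -0.30 (adjusted p = 0.123) without the 4 libraries, and the call was lost in 10 of 14 alternatives, without any of the 3 DMSO libraries or BMS204352 replicates 1 or 3 among them. There was 1 call in place of 4 without DMSO replicate 1, and 2 without BMS204352 replicate 1. Serpinh1, the collagen chaperone, fell by 0.24 ± 0.03 in E0771, and the TGF-beta co-receptor Tgfbr3 rose by 0.41 ± 0.07.

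The difference between the lines in the BMS204352 effect passed for 4 of 33 members, all lower in E0771, 12.1% against a percent called of 5 (1.89 higher and 3.11 lower). It was -0.77 ± 0.13 for Col18a1 (adjusted p = 0.000629), -0.40 ± 0.08 for Col16a1 (adjusted p = 0.00344), -0.93 ± 0.20 for Col7a1 (adjusted p = 0.0048) and -1.85 ± 0.56 for Col27a1 (adjusted p = 0.0457). Without the 4 libraries Col18a1 and Col16a1 still passed, at -0.57 and -0.28. Col7a1 then gave -0.67 with an adjusted p of 0.0581, and Col27a1 gave -1.17 with 0.328. For Col27a1, a fibrillar chain of cartilage, AT-3 replicate 3 with BMS204352 was at 6.02 CPM and replicates 1 and 2 at 2.04 and 3.31, and the call was lost without that library. It was also lost without any of the other AT-3 and E0771 libraries of the comparison except replicates 1 and 2 of BMS204352 in AT-3 and replicate 2 of each group in E0771. For NS11021, edgeR called 0 differences between the lines, with 4 at an unadjusted p under 0.05 and 0 with DESeq2, beside a percent called of 3.99 (1.49 higher and 2.5 lower).

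On top of KCl in AT-3, NS11021 changed 0 of 30 members with edgeR, 1 at an unadjusted p under 0.05 and 0 with DESeq2, beside a percent called of 0.0203 (0.0203 higher and 0 lower). BMS204352 on top of KCl raised 1 and lowered 4, 16.7% against a percent called of 1.24 (0.731 higher and 0.508 lower). Of these, 3 were called without the 4 libraries. Col11a1 went from 1350, 1470 and 1460 CPM with KCl to 951, 876 and 926 with KCl+BMS204352, a log2 change of -0.65 ± 0.09 (adjusted p = 0.00163), and -0.67 (adjusted p = 0.00688) without the 4 libraries. The group's replicate 3 lay between the other 2. Col18a1 went from 195, 198 and 184 to 257, 289 and 333 CPM (0.60 ± 0.12, adjusted p = 0.0301), and 0.49 (adjusted p = 0.000131) without the 4 libraries. Col3a1 went from 13.8, 15.5 and 19.9 to 9.95, 7.68 and 6.91 CPM (-1.02 ± 0.22, adjusted p = 0.0339), and -0.92 (adjusted p = 0.0678) without them. Col4a5 went from 204, 222 and 208 to 176, 187 and 175 CPM (-0.25 ± 0.05, adjusted p = 0.0285), and Col8a2 from 25.5, 24 and 38 to 15.9, 14.7 and 16.9 CPM (-0.89 ± 0.21, adjusted p = 0.049). Except for Col11a1, each of these calls was lost when single libraries were left out: for Col8a2 and Col4a5 any of the 6, for Col18a1 and Col3a1 any but KCl+BMS204352 replicate 1. The adjusted p-values reached 0.209, and 3 members were called without KCl+BMS204352 replicate 1 and 1 without any other of the 6. The interactions of KCl with NS11021 and with BMS204352 in AT-3 called 0 members with edgeR, 0 at an unadjusted p under 0.05 and 0 with DESeq2, and the percent called was 0 for both.

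In E0771, NS11021 on top of KCl raised 1 of 22 members, 4.55% against a percent called of 17.2 (9.59 higher and 7.65 lower). All alternatives that left out no single library gave more calls, from 2 to 5, each with Col7a1 added, among them 4 without the 4 libraries and 5 with only the libraries compared. The 1 call was Col18a1, from 328, 346 and 330 to 363, 360 and 384 CPM (0.14 ± 0.04, adjusted p = 0.0145), a call lost without KCl replicate 1, KCl replicate 3 or KCl+NS11021 replicate 3, where the adjusted p reached 0.115. Without KCl+NS11021 replicate 1 there were 2 calls. BMS204352 on top of KCl lowered 3 and raised 1 of 22, 18.2% against a percent called of 19.9 (9.85 higher and 10.1 lower), near the background. Col4a1 went from 1720, 1750 and 1770 to 1550, 1620 and 1630 CPM (-0.14 ± 0.04, adjusted p = 0.00705) and Col4a2 from 743, 791 and 743 to 652, 692 and 703 CPM (-0.16 ± 0.04, adjusted p = 0.00477, and 0.0511 without KCl replicate 2). These changes without the 4 libraries were -0.15 and -0.18. Col5a3 fell by 0.15 ± 0.05 on the log2 scale (adjusted p = 0.0385), a call lost without any of the 6 libraries but KCl replicate 3, with an adjusted p of up to 0.178. Col20a1, a FACIT, held 0, 1 and 1 counts with KCl and 10, 10 and 9 with KCl+BMS204352 (adjusted p = 0.0371), and that call was lost without any 1 of these libraries, with an adjusted p of up to 0.144. There was 1 call in place of 4 without KCl replicate 2, and 2 without KCl replicate 1 or KCl+BMS204352 replicate 1 or 2.

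The interaction of KCl and BMS204352 in E0771 was called for Col18a1 alone of 22 members, 4.55% against a percent called of 1.62 (0.569 higher and 1.06 lower). Col18a1 rose by 0.15 with BMS204352 alone, and with KCl it went from 328, 346 and 330 to 295, 314 and 330 CPM, an interaction of -0.26 ± 0.06 (adjusted p = 0.0182). Without the 4 libraries it was -0.28 (adjusted p = 0.00146), and 4 members were then called, with Col4a1, Col4a2 and Col5a3 added. Without DMSO replicate 1, KCl replicate 2 or KCl+BMS204352 replicate 1 the call was lost, with an adjusted p of up to 0.0807, while 2 members were called without DMSO replicate 3 and 4 without BMS204352 replicate 3. For KCl and NS11021 the interaction was called for 0 members with edgeR, 2 at an unadjusted p under 0.05 and 0 with DESeq2, beside a percent called of 0.217 (0.195 higher and 0.0225 lower).

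The compounds were compared at the same 10 µM dose and time. In AT-3, BMS204352 against NS11021 called 1 member higher and 5 lower of 30, 20% against a percent called of 2.94 (1.39 higher and 1.55 lower). Col18a1 was at 291, 284 and 413 CPM with BMS204352 and 203, 211 and 189 with NS11021 (0.72 ± 0.12, adjusted p = 0.00669, and 0.51 with 3.36e-05 without the 4 libraries). Col3a1 was at 11.8, 8.76 and 6.65 against 23, 28.1 and 31.6 CPM (-1.61 ± 0.21, adjusted p = 0.00117, and -1.43 with 0.00491 without the 4 libraries). Col4a5 differed by -0.32 ± 0.05 and Col4a4 by -1.04 ± 0.20, both also called without the 4 libraries. Col8a2 and Col11a1 were the others, and their calls were lost without the 4 libraries (adjusted p = 0.0815 and 0.116) and without NS11021 replicate 3 or BMS204352 replicate 3 alone. Fitted to the NS11021 and BMS204352 libraries alone, only Col8a2 of the members was called. The adjusted p was then 0.149 for Col18a1, 0.0568 for Col3a1, 0.149 for Col4a5 and 0.118 for Col4a4. With KCl present, the compounds differed for 4 members in AT-3, all lower with BMS204352, 13.3% against a percent called of 0.454 (0.196 higher and 0.257 lower). These were Col4a3 (-1.19 ± 0.22), Col3a1 (-1.03 ± 0.22), Col11a1 (-0.54 ± 0.09) and Col4a5 (-0.30 ± 0.05). With the 4 libraries left out, Col3a1 was lost (adjusted p = 0.102) and Col18a1 was called. Leaving out single libraries gave 0 to 3 calls, with 2 without KCl+NS11021 replicate 2, and adjusted p-values up to 0.277. The call for Col4a3 was lost without any of the 6 libraries, that for Col3a1 without any but KCl+BMS204352 replicate 1, and those for Col11a1 and Col4a5 without KCl+NS11021 replicate 1 or 3 or KCl+BMS204352 replicate 2 or 3.

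In E0771, BMS204352 and NS11021 differed for 0 of 22 members with edgeR, 2 at an unadjusted p under 0.05 and 0 with DESeq2, beside a percent called of 1.76 (0.629 higher and 1.13 lower). With KCl present, 3 members were lower with BMS204352, 13.6% against a percent called of 4.96 (1.03 higher and 3.93 lower), and the calls held without any single library of the comparison. Col4a1 was at 1550, 1620 and 1630 CPM with KCl+BMS204352 and 1760, 1840 and 1850 with KCl+NS11021 (-0.20 ± 0.04, adjusted p = 0.000674). Col4a2 was at 652, 692 and 703 against 785, 813 and 797 CPM (-0.24 ± 0.04, adjusted p = 0.000306). Col18a1 was at 295, 314 and 330 against 363, 360 and 384 CPM (-0.25 ± 0.04, adjusted p = 0.000182). The receptor chain Itga10 and the fibril partner Bgn were lower in the same comparison, with log2 differences of -0.73 ± 0.12 and -1.12 ± 0.19.

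Sums over each class were set side by side as a description. In AT-3 all members together held 2840 ± 202 CPM (SD, n = 3) with DMSO, of which the fibrillar class held 1610 ± 110. The fibrillar sum was 1210 ± 192 with BMS204352 and 1080 ± 33.4 with KCl+BMS204352, most of it Col11a1. The network sum in AT-3 was 362 ± 20.3 with DMSO, 446 ± 25.2 with KCl and 410 ± 18.6 with KCl+BMS204352. In E0771 all members held 4300 ± 159 CPM with DMSO and 4480 ± 55.7 with KCl. The fibrillar sum went from 1530 ± 70.2 to 1300 ± 5.94 CPM with KCl, with no overlap of libraries, and the network sum from 2130 ± 80.8 to 2510 ± 43.7, again with no overlap. With DMSO in E0771, Col5a1 held 1170 CPM of the fibrillar sum, and Col4a1 and Col4a2 held 1470 and 654 CPM of the network sum. The sums there thus mostly follow these genes, and the fibrillar genes Col5a3 and Col24a1 rose with KCl. No test was made of the sums.

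**Figure D5:**
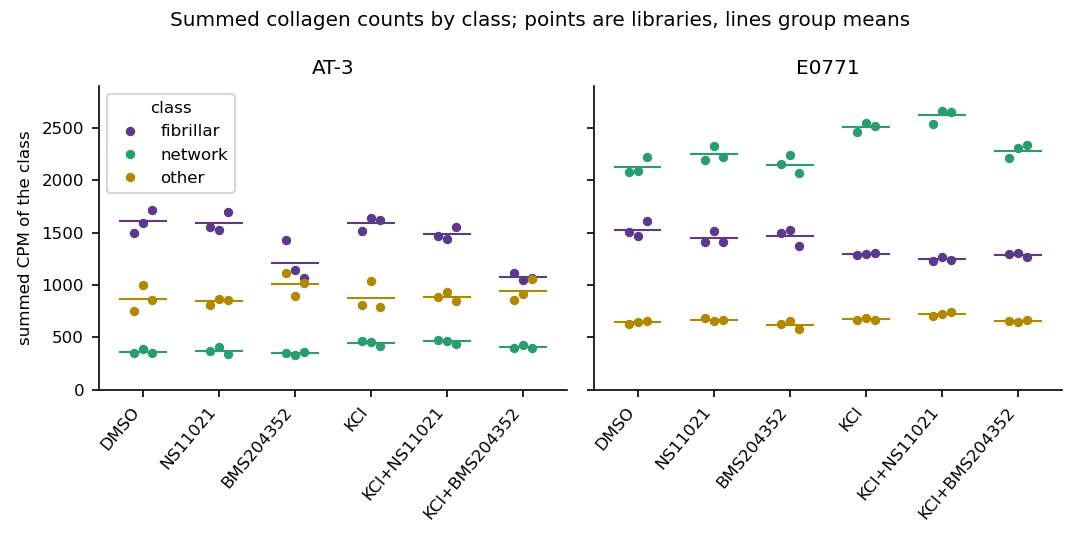
Summed CPM of the fibrillar, network and other members in each of the 36 libraries, by group and line, with lines at the group means. In E0771 the network sum, mostly Col4a1 and Col4a2, averaged 2130 with DMSO and 2510 with KCl. The fibrillar sum there, mostly Col5a1, averaged 1530 and 1300. In AT-3 the fibrillar sum averaged 1610 with DMSO and 1210 with BMS204352.

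Likeness was taken as Pearson's correlation of log2 CPM over the 18 libraries of a line, which share treatments and depth, and is a description. In AT-3 the gene most like Col4a2 was Col4a1 (0.88), and in E0771 it was again Col4a1 (0.947). The gene most like Col5a1 in AT-3 was Col5a3 (0.87), followed by the collagen-binding Sparc (0.869). Col16a1 was most like the tubulin gene Tubb2a (0.976) in AT-3 and Fstl1 (0.826) in E0771. Col18a1 was most like the immediate early gene Nr4a1 (0.97) in AT-3 and the water channel gene Aqp1 (0.989) in E0771. Col1a1 was most like the elastin gene Eln (0.801) in AT-3 and the chaperone gene Fkbp4 (0.974) in E0771. Col3a1 was most like Adamts9 (0.945) and Synpo (0.932), and Col4a1 like Washc5 (0.917) and the integrin gene Itga3 (0.97), in AT-3 and E0771 in turn. None of the genes most like an index member in both lines was the same except Col4a1 for Col4a2.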

How the data were processed

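RNA was sequenced from 36 libraries, 3 in each of 12 groups, and samples were grouped by their titles. The authors deposited whole-number counts for each gene, made with STAR and featureCounts on GRCm38, per the submitters' processing notes. Neither tool's version nor the strand setting was found in these sources. Each of the 36 columns matched 1 title. The 2 IDs of human form (6 counts) were left out, and 50 IDs without a symbol held 0.0009% of counts. Among counts from 1 to 10, 84.5% were even, so halved counts were tried too. Exon lengths and symbols came from GENCODE vM21.

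With R 4.3.3, edgeR 4.0.16 and limma 3.58.1, genes passing filterByExpr (minimum count 10, minimum total 15) were normalized by TMM and tested two-sided with edgeR's quasi-likelihood test, on the 18 libraries of each line (14772 genes and 30 members in AT-3, 13357 and 22 in E0771) or on all 36 for comparisons between lines (15969 and 33). P-values were adjusted by Benjamini-Hochberg over all genes in each of 22 comparisons, with a threshold of 0.05. Values after ± are SEs of log2 changes or SDs of 3 libraries. RPKM uses TMM-scaled totals and the union of exons; exons of Col9a3 and Col4a3 overlap genes on the other strand over 6.07% and 5.65% of their length. Floors are 3 counts over a group and cover counting error only. The test was tried on simulated data for the KCl comparison (14772 genes in AT-3 and 13357 in E0771). Of genes changed 2-fold, 86% were recovered in either line. Recovery in AT-3 and E0771 was 46% and 66% at 1.5-fold, and 22% and 38% at a smaller fold. False calls were 4% of calls in AT-3 and 7.84% in E0771, beside the threshold of 0.05. Only genes averaging at least 10 counts were changed, 50 at each fold, so members with fewer counts were not covered.

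The members and lists were chosen with earlier results of these data known. Named were 9 index members, members called against DMSO or between lines, up to 4 called in other comparisons, and up to 4 listed genes per comparison, those with the smallest adjusted p (1 listed gene is not reported here). Marker genes, and others where said, were named after their values were seen. Alternatives were DESeq2 1.42.0 or its size factors alone, halved counts, no filter on low counts, at least 1 CPM in 3 libraries, a replicate block, only the libraries compared, and leaving out 1 or 4 libraries.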

Additional observations from a re-analysis of the deposited data

Results flagged for a closer look

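Each result here passed a test of a difference between effects, between the lines or between BMS204352 with and without KCl. With KCl, the effect in E0771 minus that in AT-3 was -1.09 for Col1a1 (own log2 changes -1.06 ± 0.13 in E0771 and 0.03 ± 0.18 in AT-3), 1.18 for Col5a3 (0.30 ± 0.05 and -0.89 ± 0.30), -1.31 for Col11a2 (-0.53 ± 0.27 and 0.77 ± 0.20) and 0.73 for Col16a1 (-0.15 ± 0.06 and -0.89 ± 0.06). With BMS204352 it was -0.93 for Col7a1 (-0.33 ± 0.06 and 0.59 ± 0.18), -0.40 for Col16a1 (-0.09 ± 0.06 and 0.30 ± 0.06), -0.77 for Col18a1 (0.15 ± 0.04 and 0.92 ± 0.12) and -1.85 for Col27a1 (-1.20 ± 0.50 and 0.64 ± 0.31). For Col27a1 neither line's own change passed (adjusted p = 0.0796 in E0771 and 0.243 in AT-3), and its difference was lost without the 4 libraries. The interaction of KCl and BMS204352 in E0771 was -0.26 for Col18a1. With only the libraries compared, 0 members were called for the line difference with BMS204352 and 0 for this interaction.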

How the results depend on the processing

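Of 92 calls of a member in a comparison, 49 held under every alternative in which the gene was tested. Of the 49, 1 (Col10a1 between the lines) was too low to test after halving or under the 1 CPM minimum. Most of the 49 were calls between the untreated lines, where only Col13a1 and Col23a1 lost theirs. Within AT-3 the calls that held were Col16a1 and Col4a5 with KCl, and Col11a1 for KCl+BMS204352 against KCl. All other calls within AT-3 were lost in at least 1 alternative. Of 1332 alternative values 1157 stayed on the same side of the threshold, 175 lost the call and 0 reversed. DESeq2 called 8 members for KCl in AT-3, 9 for KCl+BMS204352 against KCl and 7 for KCl+BMS204352 against KCl+NS11021 in AT-3, 2 for KCl+NS11021 against KCl in E0771 and 9 for the line difference with KCl. Without a filter, counts were 2 for KCl+BMS204352 against KCl in AT-3, 3 for KCl+NS11021 against KCl and 3 for the interaction of KCl and BMS204352 in E0771. For KCl+NS11021 against KCl in E0771, DESeq2 size factors, the filter of 1 CPM and halved counts gave 2 each. Without the 4 libraries, counts were 3 (KCl+BMS204352 against KCl, AT-3), 4 (KCl+NS11021 against KCl, E0771), 4 (interaction of KCl and BMS204352, E0771), 8 (line difference with KCl) and 2 (line difference with BMS204352). With only the libraries compared, they were 0 (BMS204352, AT-3), 1 (BMS204352 against NS11021, AT-3), 7 (NS11021, E0771), 2 (BMS204352, E0771), 5 (KCl+NS11021 against KCl, E0771), 0 (interaction of KCl and BMS204352, E0771), 7 (line difference with KCl) and 0 (line difference with BMS204352); these fits hold fewer libraries. In other cases the cause was not tested.

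Leaving out single libraries gave 2 to 4 for KCl, 3 to 9 for BMS204352, 1 to 3 for KCl+BMS204352 against KCl, 4 to 7 for BMS204352 against NS11021 and 0 to 3 for the same with KCl in AT-3. In E0771 it gave 8 to 9 for KCl, 2 to 4 for NS11021, 1 to 5 for BMS204352, 0 to 2 for KCl+NS11021 against KCl, 1 to 3 for KCl+BMS204352 against KCl, 3 to 3 for the compounds with KCl and 0 to 4 for the interaction of KCl and BMS204352. Between the lines it gave 28 to 29 with DMSO, 3 to 5 for the KCl effect and 3 to 5 for the BMS204352 effect. Deviations of same-numbered libraries from their group means correlated weakly over all genes tested, from -0.03 to 0.09. In AT-3, however, the third axis of variation (6.69%) placed replicate 2 highest and replicate 3 lowest in every group. Replicates 1 to 3 scored 8.07, 20.3 and -3.99 with DMSO, and 0.839, 11.7 and -13.9 with KCl. What same-numbered libraries share is not in the labels and was not tested. The replicate block gave 9 for KCl+BMS204352 against KCl and 7 for KCl+BMS204352 against KCl+NS11021 in AT-3, 2 for KCl+NS11021 against KCl and 2 for the interaction of KCl and BMS204352 in E0771.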
